A study of Mus musculus with 2 samples.

Results

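The 10 genes described here encode receptors, bridging proteins and opsonins by which phagocytes recognise dying cells, together with the mannose receptor. They were taken by name and were found in the count table by the Ensembl ID of each GRCm38 symbol, 10 of the 55487 IDs listed. All 10 matched 1 ID each. RNA was sequenced from lineage-negative bone marrow cells of C57BL/6 wild-type mice that had been transduced with a pMYs-IG retroviral vector carrying 3xHA-tagged EVI1+18, the product of aberrant splicing of the leukaemia-linked zinc finger factor EVI1, or with the same vector carrying EVI1-WT, the wild-type form. Both vectors overexpressed EVI1 stably. The cells of both groups were sorted for GFP 3 days after infection, plated at 10000 cells in MethoCult M3434 and harvested after about 3 weeks, so each library was made from a mixture of colonies grown for that time. Each group was 1 library, and the labels give no number of animals, clones or cultures behind it. No difference below therefore has a replicate check, no test was run, and intervals cover counting error only.

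Efferocytosis is the clearance of apoptotic cells, which are marked by phosphatidylserine on their surface. TYRO3, AXL and MERTK, the TAM receptor tyrosine kinases, do not touch this lipid themselves but bind it through the vitamin K-dependent bridging proteins GAS6 and protein S (Pros1). TIM-4 (Timd4) binds phosphatidylserine directly and marks many tissue-resident macrophages. C1q, the recognition subunit of the classical complement pathway, is assembled from A, B and C chains, is made largely by macrophages and also coats dying cells. The mannose receptor CD206 (Mrc1) takes up mannose-bearing glycoproteins and is carried by alternatively activated and many resident macrophages.

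The libraries held 20981903 counts for EVI1+18 and 20480447 counts for EVI1-WT. Values are given as counts and as scaled CPM, which is CPM computed on library sizes scaled by the TMM method. Mecom, the locus of EVI1, had 4481 counts in EVI1+18 and 3612 in EVI1-WT, and these counts do not separate vector from endogenous transcripts. A gene was called higher or lower when the whole 95% counting interval of its ratio, EVI1+18 over EVI1-WT, lay above 2 or below 1/2, provided that it reached 1 scaled CPM in either library. In all, 13183 genes were above that filter.

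EVI1+18 colonies had more Mertk and Mrc1 RNA and less Axl and Tyro3 RNA than EVI1-WT colonies, each by more than 2-fold beyond counting error. The bridging genes Gas6 and Pros1, the C1q chains and Timd4 lay below the filter in both libraries. Thus 4 of the 10 genes passed the filter, of which 2 were called higher and 2 lower, and 6 could not be called. Over all genes above the filter, 10.1% were called in either direction, 5.05% as higher and 5.10% as lower. Mertk passed the filter through the EVI1+18 library alone. In these bulk libraries, fewer cells of a type and less RNA per cell cannot be told apart.

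**Figure D1:**
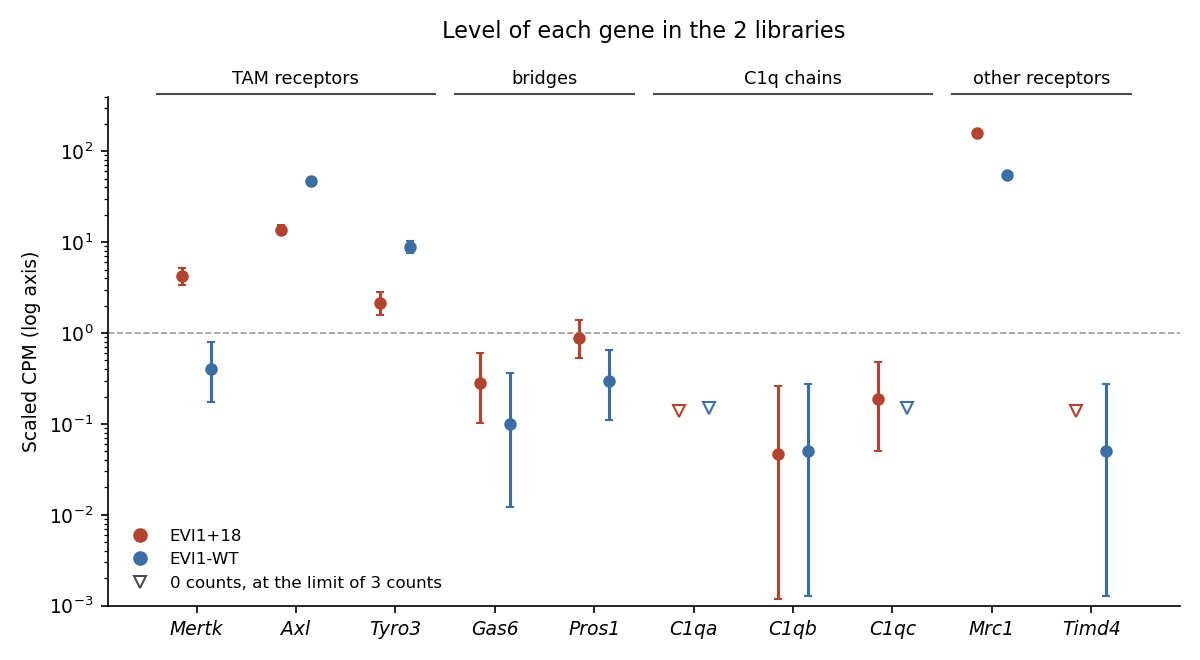
Scaled CPM (log axis) of each of the 10 genes in EVI1+18 (red, left of each pair) and EVI1-WT (blue, right). Points are single libraries, bars are 95% exact Poisson counting intervals, open triangles stand at the limit that a count of 0 allows (3 counts), and the dashed line is the filter at 1 scaled CPM. Only Mertk, Axl, Tyro3 and Mrc1 reach the line in a library.

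The TAM receptors differed in opposite directions, Mertk being higher and Axl and Tyro3 lower in EVI1+18. Mertk, the receptor of this family most tied to engulfment by macrophages (GRCm38 chromosome 2, 128698956 to 128802894, plus strand), had 90 counts in EVI1+18 and 8 in EVI1-WT, or 4.19 and 0.400 scaled CPM. This was a 10.5-fold ratio with a counting interval of 5.11 to 25.1, whose width comes from the 8 counts. Axl, a TAM receptor with GAS6 as its ligand that inflammatory signals induce (minus strand of chromosome 7, 25757273 to 25788705), had 295 counts in EVI1+18 and 933 in EVI1-WT. Its level was 13.8 scaled CPM in EVI1+18 and 46.6 in EVI1-WT, 3.39-fold lower with an interval of 2.97 to 3.88. Tyro3, the family member best known from the nervous system (chromosome 2, 119797733 to 119818104, plus strand), had 46 counts in EVI1+18 and 176 in EVI1-WT, or 2.14 and 8.79 scaled CPM. It was 4.10-fold lower, with an interval of 2.95 to 5.80. Mertk and Tyro3 lie on the same chromosome and Axl on another, and no annotated exon of another gene overlapped any of the exons of these receptors.

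Because Axl carried most of the TAM counts, the summed TAM level was lower in EVI1+18. The 3 receptors together had 431 counts in EVI1+18 and 1117 in EVI1-WT, or 20.1 and 55.8 scaled CPM, a 2.78-fold lower sum (2.48 to 3.11). Mertk made up 20.9% of the TAM counts in EVI1+18, with an exact binomial interval of 17.1% to 25.0%, and 0.716% in EVI1-WT, with an interval of 0.310% to 1.41%. Axl made up 68.5% (63.8% to 72.8%) in EVI1+18 and 83.5% (81.2% to 85.7%) in EVI1-WT, so it was the most counted receptor in both. Tyro3 made up 10.7% (7.92% to 14.0%) in EVI1+18 and 15.8% (13.7% to 18.0%) in EVI1-WT, intervals that overlap slightly. Per kilobase of exon the Mertk share was 23.9% in EVI1+18 and 0.856% in EVI1-WT. These shares were computed after the counts had been seen.

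**Figure D2:**
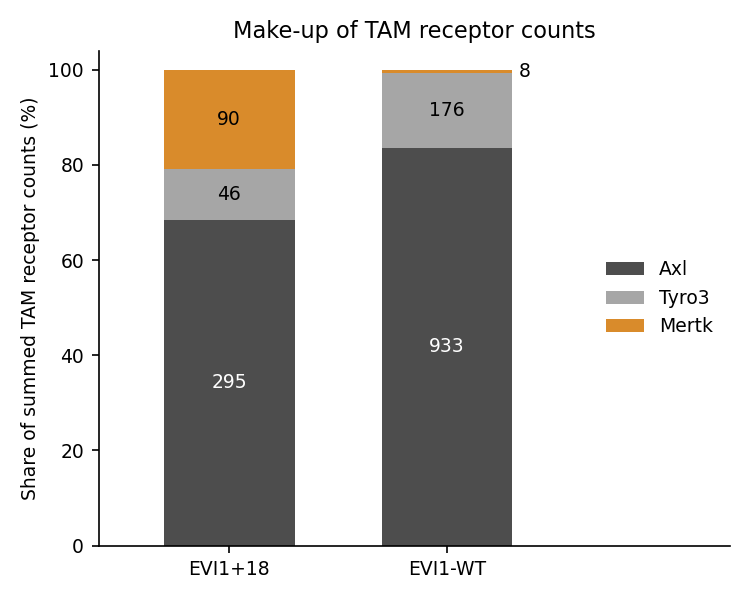
Share of the summed counts of Mertk, Axl and Tyro3 (%) that each receptor took in the EVI1+18 library (left) and the EVI1-WT library (right), with the number of counts written in or beside each segment. Mertk takes 20.9% of 431 counts in EVI1+18 and 0.716% of 1117 counts in EVI1-WT.

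Mrc1, the mannose receptor gene (chromosome 2, 14229392 to 14332057, plus strand), was the most abundant of the 10 genes in EVI1+18. It had 3394 counts in EVI1+18 and 1088 in EVI1-WT, or 158 and 54.3 scaled CPM. This 2.91-fold ratio had a counting interval of 2.72 to 3.12. Per kilobase of exon, Mrc1 stood at 24.8 scaled CPM in EVI1+18, above 82.8% of the genes that passed the filter, and at 8.53 in EVI1-WT, above 59.0% of them.

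Between the libraries, Mertk and Tyro3 changed places in the order of the levels per kilobase of exon, while a change at the top was not resolved. In EVI1+18 the order was Mrc1 (24.8 scaled CPM per kilobase), Axl (2.73), Mertk (0.967) and Tyro3 (0.346), and the Poisson intervals of neighbours in that order did not overlap. In EVI1-WT the order was Axl (9.26), Mrc1 (8.53), Tyro3 (1.42) and Mertk (0.0921). There the intervals of Axl (8.67 to 9.87) and Mrc1 (8.03 to 9.05) overlapped, and that of Mertk (0.0398 to 0.182) overlapped with those of the genes below it. Tyro3 (0.253 to 0.461) and Pros1 (0.130 to 0.338) overlapped in EVI1+18. The median over all genes above the filter was 6.09 in EVI1+18 and 6.11 in EVI1-WT, so Mertk and Tyro3 were low genes in both libraries.

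The bridging ligands of the TAM receptors were close to the limit of detection. Gas6, which binds all members of the TAM family (minus strand of chromosome 8, 13465374 to 13494490), had 6 counts in EVI1+18 and 2 in EVI1-WT. Its ratio of 2.80 had an interval of 0.501 to 28.4, which includes equality. Its exons share 34 bases with those of Tmem255b on the other strand, a gene with 0 counts in EVI1+18 and 0 in EVI1-WT. Pros1, which encodes protein S, a ligand of TYRO3 and MERTK and a plasma anticoagulant (chromosome 16, 62854307 to 62929346, plus strand), had 19 counts in EVI1+18 and 6 in EVI1-WT, or 0.886 and 0.300 scaled CPM. Its ratio of 2.96 had an interval of 1.14 to 9.04, above equality but reaching below 2. Both point ratios were above 1, and together the 2 ligands had 25 counts in EVI1+18 and 8 in EVI1-WT.

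C1q RNA was not detectable above a few reads in either library. The C1q genes lie side by side within 18.7 kb of chromosome 4 (136880129 to 136898803, all on the minus strand). C1qa had 0 counts in EVI1+18 and 0 in EVI1-WT, for which a limit of 3 counts per library stands at 0.140 scaled CPM in EVI1+18 and 0.150 in EVI1-WT. The upper bounds of the exact Poisson intervals, which are two-sided, are 0.172 in EVI1+18 and 0.184 in EVI1-WT. C1qb had 1 count in EVI1+18 and 1 in EVI1-WT. C1qc had 4 counts in EVI1+18 and 0 in EVI1-WT, and the interval of its ratio began at 0.616, so equality was included. The trio summed to 5 counts in EVI1+18 and 1 in EVI1-WT, so the make-up of the chains cannot be compared: the C1qc share of 80.0% in EVI1+18 had an interval of 28.4% to 99.5%, and the C1qb share in EVI1-WT was 100% of 1 count (2.50% to 100%).

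Timd4, the gene of the phosphatidylserine receptor TIM-4 (chromosome 11, 46810800 to 46844332, plus strand), had 0 counts in EVI1+18 and 1 in EVI1-WT. A difference in Timd4 or C1qa was not detectable at this depth. For all 10 genes, 0% of the 50-base words of their transcripts occurred in transcripts of another gene, so none of them shares a stretch of that length with another annotated transcript.

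**Figure D3:**
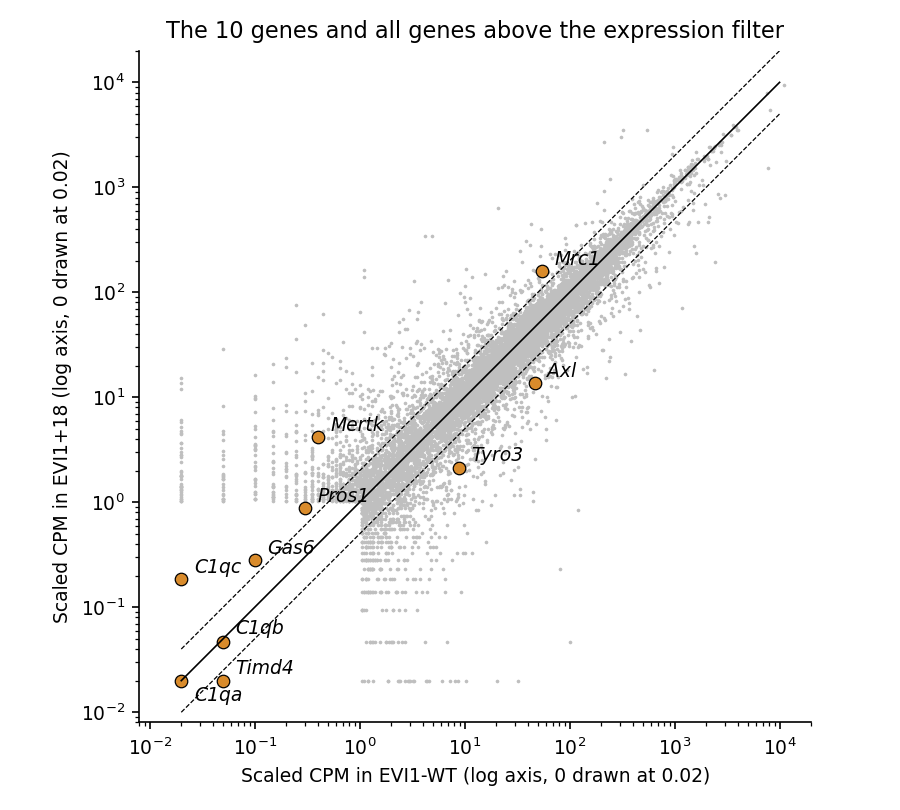
Scaled CPM in EVI1-WT (x, log axis) and in EVI1+18 (y, log axis) for the 13183 genes above the expression filter (grey) and the 10 genes described (orange), with 0 drawn at the low end. The solid line marks equality and the dashed lines 2-fold. Mertk and Mrc1 lie above the upper dashed line, Axl and Tyro3 below the lower one, and Timd4 and the C1q chains at the lower left.

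Promoter sequence is shown for the 4 genes whose ratios were called, since these moved in opposite directions. Windows run from 250 bases before to 50 bases after the RefSeq start site on GRCm38.p6 and are written 5′ to 3′ on the strand of the gene. RefSeq windows matched 9 of the 10 genes. Capitals mark GC boxes (GGGCGG, or CCGCCC on the other strand) and the core recognised by the myeloid factor PU.1 (GAGGAA, or TTCCTC).
Mertk (chr2:128698665-128698964, plus strand): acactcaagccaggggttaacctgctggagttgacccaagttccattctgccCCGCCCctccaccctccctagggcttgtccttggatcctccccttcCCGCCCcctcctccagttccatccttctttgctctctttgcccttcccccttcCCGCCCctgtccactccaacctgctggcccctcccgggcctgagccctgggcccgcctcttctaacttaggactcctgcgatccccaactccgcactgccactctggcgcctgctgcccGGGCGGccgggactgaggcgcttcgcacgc
Axl (chr7:25788684-25788983, minus strand): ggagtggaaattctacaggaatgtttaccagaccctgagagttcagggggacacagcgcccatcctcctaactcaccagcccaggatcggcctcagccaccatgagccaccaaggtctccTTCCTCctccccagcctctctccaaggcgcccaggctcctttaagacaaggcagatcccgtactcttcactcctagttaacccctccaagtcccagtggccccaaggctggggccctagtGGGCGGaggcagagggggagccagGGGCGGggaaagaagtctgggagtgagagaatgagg
Tyro3 (chr2:119799264-119799563, plus strand): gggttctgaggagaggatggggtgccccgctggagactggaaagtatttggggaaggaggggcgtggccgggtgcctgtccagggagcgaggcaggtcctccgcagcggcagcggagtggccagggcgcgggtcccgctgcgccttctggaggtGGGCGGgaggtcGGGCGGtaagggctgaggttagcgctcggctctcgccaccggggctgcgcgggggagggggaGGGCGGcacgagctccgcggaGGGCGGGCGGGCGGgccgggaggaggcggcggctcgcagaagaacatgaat
Mrc1 (chr2:14229164-14229463, plus strand): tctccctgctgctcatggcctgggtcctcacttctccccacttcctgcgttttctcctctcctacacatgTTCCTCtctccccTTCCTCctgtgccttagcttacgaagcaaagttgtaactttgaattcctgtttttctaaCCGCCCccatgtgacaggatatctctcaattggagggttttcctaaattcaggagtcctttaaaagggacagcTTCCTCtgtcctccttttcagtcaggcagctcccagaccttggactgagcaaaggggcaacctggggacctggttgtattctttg
The TAM promoters were GC-rich, at 66.0% for Mertk, 60.3% for Axl and 73.3% for Tyro3, whereas Mrc1 had 50.3%, against a median of 52.7% over 32851 windows of the same length. Mertk held 4 GC boxes and no PU.1 core, and Tyro3 held 6 GC boxes, 3 of them overlapping, and no PU.1 core. Axl held 2 GC boxes and 1 PU.1 core. Mrc1 held 1 GC box and 3 PU.1 cores. GC boxes occurred in 35.7% and PU.1 cores in 28.3% of all windows. Other motifs searched on both strands were GATAAG, the core of a GATA site that the first zinc finger domain of EVI1 also recognises (7.44% of windows), GATGAG from the site of its second domain (12.0%), the MAF recognition core TGCTGA (19.5%) and TATAAA (13.6%). These letters were not in the 4 windows shown. The windows of the uncalled genes, which are not shown, held some of them. Pros1 had 1 match to the core recognised by the first zinc finger domain of EVI1. The MAF core matched at 1 place in C1qb and at 2 in Timd4.

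Calls in this and the following lists stand beside 5.05% higher and 5.10% lower over all genes above the filter. A few calls in a list of this size are not read as a result about the list. Among 20 other recognition receptors for dying cells, 16 passed the filter, of which 3 were called higher and 2 lower in EVI1+18. Lrp1, an endocytic receptor that takes up calreticulin-coated cells, had 843 counts in EVI1+18 and 267 in EVI1-WT, a 2.95-fold ratio (2.57 to 3.40). Scarf1, a scavenger receptor that binds C1q on dying cells, had 54 counts in EVI1+18 and 12 in EVI1-WT, a 4.20-fold ratio (2.22 to 8.63). Havcr2, the gene of TIM-3, a phosphatidylserine-binding relative of TIM-4, had 31.2 scaled CPM in EVI1+18 and 122 in EVI1-WT, a 3.92-fold lower level (3.60 to 4.28). Cd93, once described as a C1q receptor, was 2.81-fold lower (2.71 to 2.93). Cd300lf, another phosphatidylserine receptor, stood at 87.1 scaled CPM in EVI1+18 and 136 in EVI1-WT and was not called. The median log2 ratio of the 16 genes was -0.21, against 0.01 over all genes above the filter.

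Another bridging gene stood at a far higher level per length than the TAM ligands. Mfge8, whose product links phosphatidylserine to the αv integrins, had 223 scaled CPM in EVI1+18 and 51.9 in EVI1-WT, a 4.30-fold ratio (4.02 to 4.60). Per kilobase of exon it stood at 47.5 scaled CPM in EVI1+18, where Gas6 stood at 0.110 and Pros1 at 0.217. Itgb3, the β3 integrin that pairs with αv, was 2.88-fold higher (2.77 to 3.00), with 10074 counts in EVI1+18 and 3262 in EVI1-WT. β3 is also a platelet integrin, and the summed level of 12 megakaryocyte markers was 1659 scaled CPM in EVI1+18 and 817 in EVI1-WT. Of the 10 megakaryocyte markers above the filter, 7 were called higher and 0 lower. Their log2 ratios had a median of 3.70. Itga2b, the most abundant of these markers in both libraries, was not called. It stood at 718 scaled CPM in EVI1+18 and 447 in EVI1-WT. The part of those cells in the Itgb3 value was not tested. Itgav, the αv chain, named after its values were seen, had 683 counts in EVI1+18 and 951 in EVI1-WT and was not called. Of the 12 other bridging and opsonin genes, 8 passed the filter, with 1 called higher and 3 lower and a median log2 ratio of -0.92. The lower ones were Thbs1 at 3.60-fold (3.54 to 3.66), the complement component C3 at 2.58-fold (2.50 to 2.66) and the annexin Anxa2 at 2.11-fold (2.04 to 2.19). Per kilobase of exon these 3 genes stood above Mfge8 in both libraries, with Thbs1 at 138 scaled CPM in EVI1+18 and 496 in EVI1-WT. Galectin-3, Lgals3, stood at 779 scaled CPM in EVI1+18 and 397 in EVI1-WT, a ratio of 1.96 whose interval (1.91 to 2.01) began below 2.

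Genes that modify TAM ligands and receptors were mostly less than 2-fold apart. Of 10, 9 passed the filter, with 0 called higher and 1 lower and a median log2 ratio of -0.50. Adam17, the protease that sheds MERTK, had 1964 counts in EVI1+18 and 3660 in EVI1-WT, a ratio of 0.501 whose interval (0.474 to 0.529) included 1/2. Adam10, a related protease that sheds AXL, stood 1.35-fold higher (1.31 to 1.40) and was not called. Socs1, a cytokine-signalling inhibitor that TAM receptors induce in mouse dendritic cells, was 3.13-fold lower (2.84 to 3.46). Grb2, an adaptor of receptor tyrosine kinases, stood at 290 scaled CPM in EVI1+18 and 326 in EVI1-WT.

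In the engulfment machinery, 16 of 17 genes passed the filter, with 2 called higher and 0 lower and a median log2 ratio of -0.21. Dock1, the RAC activator downstream of engulfment receptors, had 459 counts in EVI1+18 and 122 in EVI1-WT, a 3.51-fold ratio (2.87 to 4.32). Its haematopoietic relative Dock2 stood 1.21-fold lower (1.16 to 1.26). Abca1, the cholesterol exporter that is induced during efferocytosis, had 593 counts in EVI1+18 and 120 in EVI1-WT, a 4.61-fold ratio (3.79 to 5.66). The small GTPase genes Rac1 and Rab7 stood at ratios of 0.983 (0.945 to 1.02) and 0.883 (0.851 to 0.916).

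Among 11 nuclear receptors and macrophage transcription factors, 10 passed the filter, with 2 called higher and 0 lower and a median log2 ratio of -0.02. They were Klf4, a zinc finger factor of monocytes, with 39 counts in EVI1+18 and 5 in EVI1-WT (7.28-fold, 2.87 to 23.7), and Maf, with 128 counts in EVI1+18 and 19 in EVI1-WT. Nr1h3, the gene of LXRα, a factor that drives Mertk and Abca1 in mouse macrophages, had 27 counts in EVI1+18 and 24 in EVI1-WT. Nr1h2, the gene of LXRβ, was the more abundant by count, with 1603 counts in EVI1+18 and 1830 in EVI1-WT. Nr1h3 was named after its values were seen.

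Of 15 genes for find-me signals, don't-eat-me signals and phospholipid scramblases, 15 passed the filter and 0 were called in either direction, with a median log2 ratio of -0.08. The don't-eat-me ligand Cd47 had 592 scaled CPM in EVI1+18 and 726 in EVI1-WT, a 1.23-fold lower level (1.20 to 1.26). Pecam1 stood 1.59-fold lower (1.54 to 1.65). The fractalkine receptor Cx3cr1, named after its values were seen, had 45 counts in EVI1+18 and 12 in EVI1-WT, and its interval (1.82 to 7.27) reached below 2.

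Of 15 genes of complement, its regulators and its receptors, 11 passed the filter, with 1 called higher and 1 lower, C3, and a median log2 ratio of 0.02. Cd59a, which blocks the membrane attack complex, was 7.18-fold higher (5.70 to 9.13), with 638 counts in EVI1+18 and 83 in EVI1-WT. The proteases that assemble with C1q were low as well. C1ra had 39 counts in EVI1+18 and 14 in EVI1-WT, C1s1 had 4 in EVI1+18 and 5 in EVI1-WT, and the C1 inhibitor gene Serping1 had 0 in both. These genes of the C1 complex were named after their values were seen. C1qbp, a mitochondrial protein that can also bind C1q, stood 1.17-fold higher (1.12 to 1.23). Over the 7 pathway lists together, 9 of 84 genes above the filter were called higher and 6 lower, beside 5.05% and 5.10% over all genes. Of the 9 higher genes, Klf4, Maf and Scarf1 passed the filter through the EVI1+18 library alone, and of the 6 lower genes 0 passed through EVI1-WT alone.

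**Figure D4:**
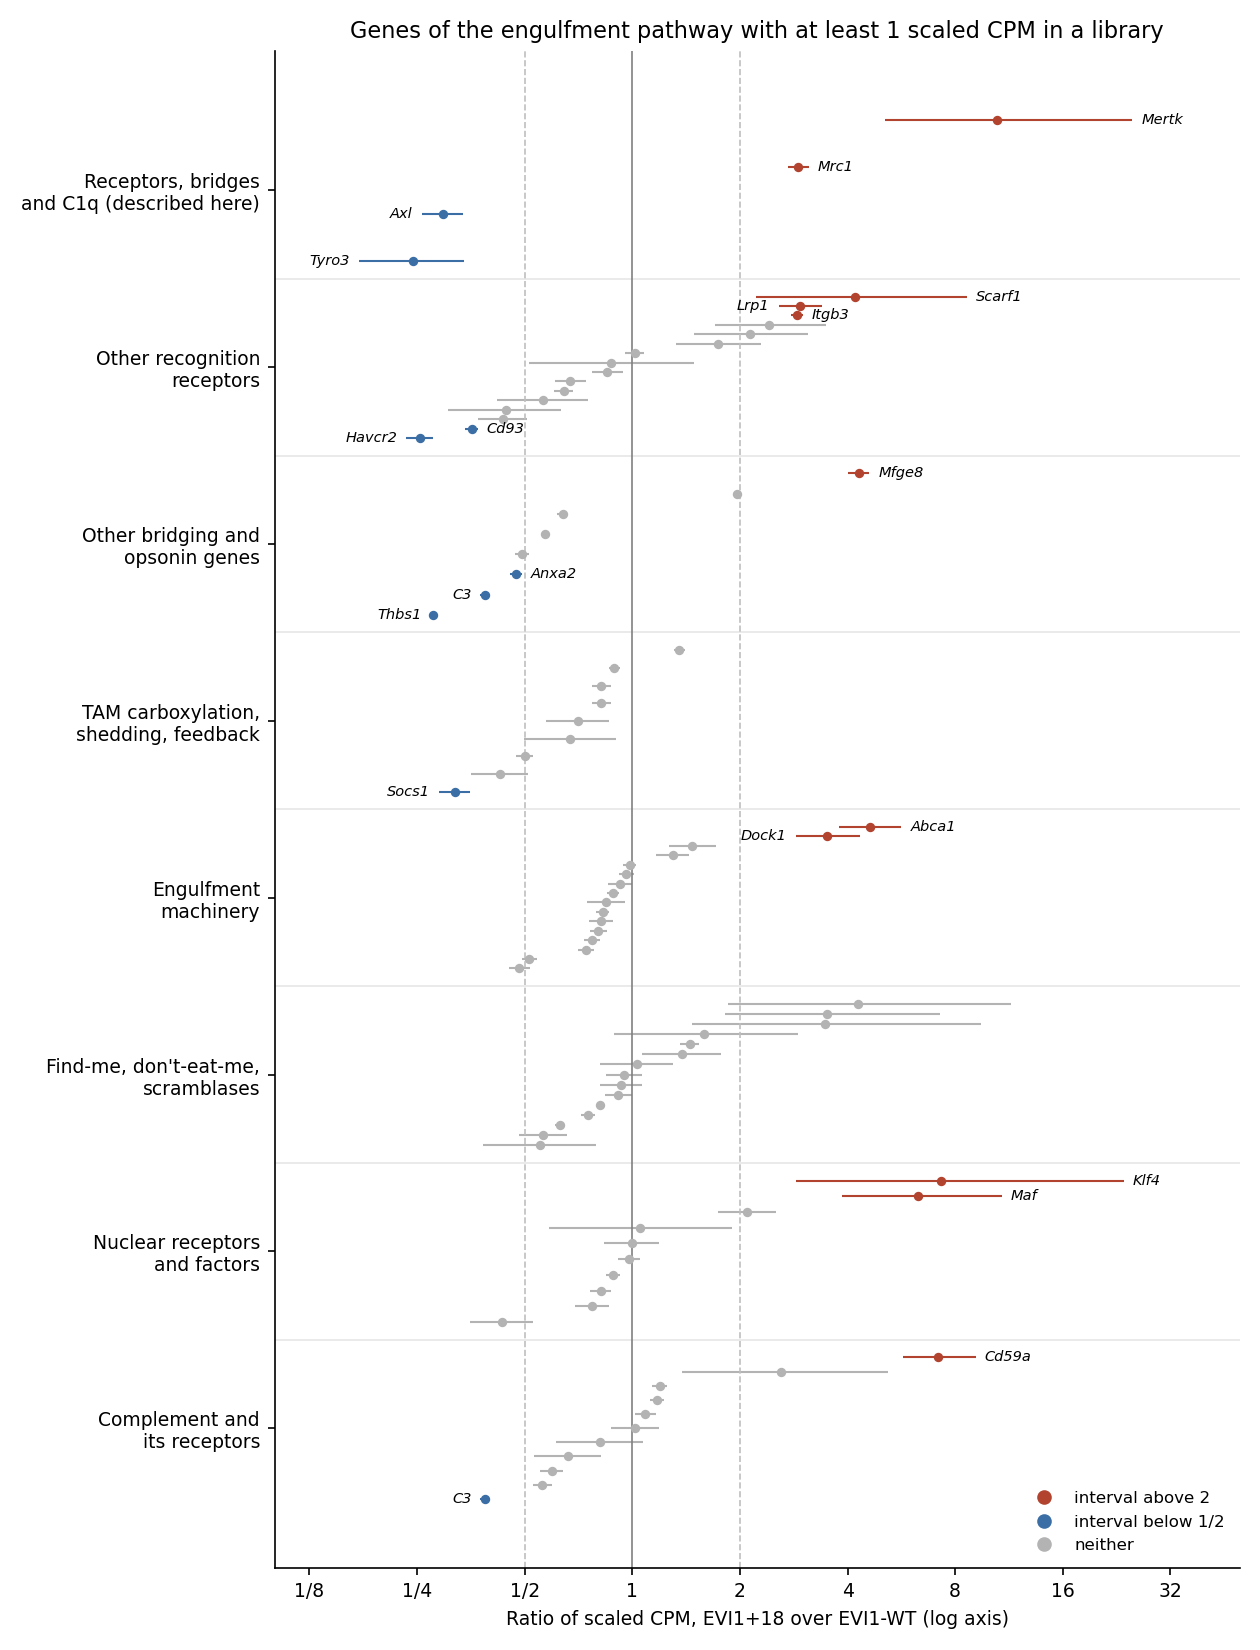
Ratio of scaled CPM, EVI1+18 over EVI1-WT (x, log axis), for the described genes and the 7 other pathway lists, showing genes above the expression filter. Points are ratios of single libraries, bars 95% counting intervals, dashed lines 2-fold. Called genes are named, and C3 stands in both lists that hold it. In the top row Mertk and Mrc1 lie to the right of 2 and Axl and Tyro3 to the left of 1/2.

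Markers of other cell types differed between the libraries too. The cells plated were lineage-negative, but the harvested RNA held markers of mature lineages in both libraries. Kit, a progenitor marker that also stands in the mast cell and basophil list below, had 254 counts in EVI1+18 and 63 in EVI1-WT. Flt3 had 5 in EVI1+18 and 5 in EVI1-WT. The 12 erythroid markers, 10 of them called higher and 0 lower, summed to 13600 scaled CPM in EVI1+18 and 1791 in EVI1-WT, and their median log2 ratio was 3.05. The 20 macrophage markers summed to 1731 scaled CPM in EVI1+18 and 1040 in EVI1-WT, with 5 of 12 above the filter called higher and 2 lower. Gpnmb alone held 70.1% of the list's counts in EVI1+18 and 23.3% in EVI1-WT. Without it the sum turned round, the other 19 markers together reaching 518 scaled CPM in EVI1+18 and 798 in EVI1-WT. Single markers went both ways. Fcgr1, Marco, Siglec1 and Trem2 were called higher, of which Marco and Siglec1 passed the filter through EVI1+18 alone. Hmox1, at 49.1 scaled CPM in EVI1+18 and 149 in EVI1-WT, and Adgre1 were called lower. Some markers of resident macrophages were at or near 0, since Vsig4, Folr2 and Cd5l had 0 counts in both libraries and Cd163 had 14 counts in EVI1+18 and 0 in EVI1-WT. Lyve1 had 18 counts in EVI1+18 and 1 in EVI1-WT. The ratio intervals of Cd163 and Lyve1 began at 3.10 and 2.65, but both genes lay below the filter and could not be called. Others were present: Adgre1, the gene of F4/80, was called lower at 94.4 scaled CPM in EVI1+18 and 246 in EVI1-WT, Siglec1 was called higher with 48 counts in EVI1+18 and 10 in EVI1-WT, and Slc40a1 had 105 counts in EVI1+18 and 126 in EVI1-WT and was not called. Cd68, a lysosomal marker, was present in both, at 193 scaled CPM in EVI1+18 and 241 in EVI1-WT. Of the 12 mast cell and basophil markers, 11 passed the filter, with 2 called higher, Kit and Prss34, and 7 lower. Their sum was 841 scaled CPM in EVI1+18 and 5617 in EVI1-WT. The 12 neutrophil markers, of which 7 were lower, summed to 2086 scaled CPM in EVI1+18 and 4258 in EVI1-WT. The 8 eosinophil markers, with 4 of 5 above the filter called lower and 1 higher, summed to 173 scaled CPM in EVI1+18 and 855 in EVI1-WT. The 12 dendritic cell markers summed to 246 scaled CPM in EVI1+18 and 131 in EVI1-WT. Stromal and endothelial markers, which cells rich in Axl, Gas6 and Pros1 carry in other tissues, summed to 1.40 scaled CPM in EVI1+18 and 5.09 in EVI1-WT. Pdgfrb, the only 1 of the 12 above the filter, had 19 counts in EVI1+18 and 80 in EVI1-WT. It was called lower, at 4.51-fold (2.71 to 7.88). At 0 were 5 of 12 genes in EVI1+18 and 4 in EVI1-WT, with Col1a2 and Pdgfra at 0 in both. Flt3, Vsig4, Folr2, Cd5l, Cd163, Lyve1, Siglec1, Slc40a1, Col1a2 and Pdgfra were named after their values were seen. The part of any of these cells in the ratios of Mertk, Axl, Tyro3 or Mrc1 was not tested.

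Set against the macrophage markers of the same library, the sizes of the receptor ratios depended on the base. The directions could not turn, since each base differed between the libraries by less than the receptors did. They are therefore no check on macrophage content. Mertk had 2.42 counts per 1000 counts of the macrophage list in EVI1+18 (1.95 to 2.98) and 0.384 in EVI1-WT (0.166 to 0.757). Mrc1 had 91.4 per 1000 in EVI1+18 (88.2 to 94.6) and 52.3 in EVI1-WT (49.1 to 55.6). Axl had 7.94 per 1000 in EVI1+18 (7.06 to 8.91) and 44.8 in EVI1-WT (41.9 to 47.9). Tyro3 had 1.24 per 1000 in EVI1+18 (0.906 to 1.65) and 8.45 in EVI1-WT (7.25 to 9.81). On this base the ratio, EVI1+18 over EVI1-WT, was 1.75 for Mrc1, below 2-fold, and 6.31 for Mertk, in place of 2.91 and 10.5 per library, while Axl was 5.64-fold lower and Tyro3 6.83-fold lower. With Csf1r and Cd68 alone as the base, whose summed counts were 5248 in EVI1+18 and 5362 in EVI1-WT, the ratio was 3.19 for Mrc1 and 11.5 for Mertk, with Axl 3.10-fold lower and Tyro3 3.75-fold lower. With the list without Gpnmb, another base chosen after seeing the data, it was 4.49 for Mrc1 and 16.2 for Mertk, with Axl 2.2-fold lower and Tyro3 2.66-fold lower.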

How the data were processed

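RNA was sequenced as 2 libraries, 1 for each vector, and the authors deposited unnormalized whole-number counts for each Ensembl ID. The submitters' processing notes name GRCm38 as the build and edgeR, Subread, featureCounts, SAMtools and HISAT2 (version 2.2.1) as tools. How multimapping reads, strand and the annotation release were set is not given in the sources used here, so reads from overlapping genes on opposite strands could be mixed. Each column was assigned by its name, and 0 columns were left unmapped.

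Symbols, coordinates and exon lengths came from GENCODE release M21 on GRCm38, which matched 55227 of 55487 IDs. Libraries were scaled with TMM in edgeR 4.0.16 (R 4.3.3). With 1 library per group, edgeR's quasi-likelihood test has no residual degrees of freedom and was not run. Ratios were given 95% exact (Clopper-Pearson) counting intervals with scipy 1.17.1, and levels exact Poisson intervals. Molecular identifiers are not named in the labels and reads may repeat a molecule, so intervals and the limit of 3 counts cover counting error only. Log2 ratios of lists use a prior count of 2, and medians are over genes above 1 scaled CPM in a library. The interval code was tested on simulated counts.

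The 10 genes and the 17 gene lists were chosen with earlier results of these data known. Of each list, the 3 genes with the highest mean level and up to 4 called genes in each direction could be named. Some of these are not given, and others named after their values were seen are marked as such. Other scalings, filters, prior counts and call rules were tried, and 1 further choice is not reported here. Promoter sequences are from RefSeq on GRCm38.p6.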

Additional observations from a re-analysis of the deposited data

How the results depend on the processing

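The log2 ratios of Mertk, Axl, Tyro3, Gas6, Pros1, C1qc and Mrc1 were recomputed with DESeq2 size factors, library totals, upper quartile factors and prior counts of 0.5 and 5. None of the 35 values changed direction, but this is no check on direction. The prior count cannot reverse a ratio, and the scalings moved each ratio far less than its size. The counting intervals of Gas6 and C1qc include equality. The 4 called genes kept their call under the 3 other scalings, and the prior count does not enter the call. They ranged from 2.79 to 3.32 for Mertk, 1.54 to 1.61 for Mrc1, -1.76 to -1.69 for Axl and -2.02 to -1.92 for Tyro3. For C1qc, with 4 counts in EVI1+18 and 0 in EVI1-WT, the range of 0.83 to 3.13 followed the prior count. Over all genes, 666 were called higher and 672 lower. With the filter at 5 scaled CPM, which tests fewer genes and leaves out Mertk at 4.19 scaled CPM in EVI1+18, 431 were higher and 468 lower, and in the pathway lists 7 and 6. With the point ratio past 2-fold, which needs no interval, 1037 were higher and 1105 lower, and in the pathway lists 16 and 12 in place of 9 and 6. With the interval past 1.5-fold, a looser rule, 1093 were higher and 1290 lower, and in the pathway lists 14 and 20. Per 1000 counts of Csf1r and Cd68, a smaller base chosen after seeing the data, Mertk had 17.2 in EVI1+18 and 1.49 in EVI1-WT, Axl 56.2 in EVI1+18 and 174 in EVI1-WT, Tyro3 8.77 in EVI1+18 and 32.8 in EVI1-WT, and Mrc1 647 in EVI1+18 and 203 in EVI1-WT. Per 1000 counts of the macrophage list without Gpnmb, also chosen after seeing the data, Mertk had 8.10 in EVI1+18 and 0.501 in EVI1-WT, Axl 26.6 in EVI1+18 and 58.4 in EVI1-WT, Tyro3 4.14 in EVI1+18 and 11.02 in EVI1-WT, and Mrc1 306 in EVI1+18 and 68.1 in EVI1-WT. Depth limits Gas6, Pros1, C1qa, C1qb, C1qc and Timd4, for which a 2-fold difference was not detectable. No library could be left out, since each group has 1. No paired analysis was possible because each group has 1 library and the labels give no replicate numbers.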

Other observations

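The genes next to the C1q cluster were low too. Ephb2, on one side of C1qb at a distance of 44.1 kb, had 0 counts in EVI1+18 and 9 in EVI1-WT, and Epha8, on the far side of C1qa at 30.6 kb, had 0 in both. The neighbours of Mertk, Tyro3 and Axl were expressed in both libraries, apart from the few counts of Cyp2s1. Anapc1, 11.6 kb from Mertk, stood at a ratio of 0.982 (0.938 to 1.03), and Rpap1, 10.2 kb from Tyro3, at 1.005 (0.912 to 1.11). Tmem87b, 15.2 kb beyond Mertk, stood at 1.49 (1.29 to 1.73). Hnrnpul1, 2.52 kb from Axl, stood at 1.21 (1.18 to 1.25), while Axl itself was lower. Cyp2s1, on its other side at 13.8 kb, had 3 counts in EVI1+18 and 36 in EVI1-WT, a ratio of 0.078 (0.015 to 0.246) in the same direction as Axl.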
